A study of Mus musculus with 9 samples.

Results

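Transcript levels of 35 genes of apical cell polarity, cell junction scaffolds and junctional actomyosin were examined in the medial ganglionic eminence (MGE), a part of the embryonic ventral telencephalon that gives rise to many cortical interneurons. The genes were taken by symbol from the 48526 genes of the deposited table, as 8 genes of the Par complex, 8 of the Crumbs complex, 3 of the Scribble group, 4 of the nectin-afadin system, 6 zonula occludens, MAGI and related junction genes, and 6 actomyosin genes. Their response to the knockout took no part in that rule, but they were proposed with earlier results of these data known. RNA was sequenced from C57BL/6 mouse MGE at embryonic day 14.5 in 5 Ctnnb1 knockout and 4 control libraries. All 9 libraries carried the Nkx2.1-cre transgene, which acts in cells that express Nkx2.1 and in their progeny, and the Rosa26-YFP reporter. The knockouts were Ctnnb1fl/fl with 2 floxed alleles, control replicate 4 was Ctnnb1fl/wt with 1, and control replicates 1 to 3 carried none. Cells outside that lineage are not targeted, and the labels leave unsaid if the cells were sorted and if the libraries came from different embryos.

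Neural progenitors of the ganglionic eminence form an epithelium whose apical ends line the ventricle and are joined by a belt of adherens junctions. The Par, Crumbs and Scribble protein groups divide the cell surface of such cells: the Par and Crumbs complexes hold the apical side and the junctional belt, and the Scribble group the basolateral side. At the belt, cadherins bind beta-catenin, the product of Ctnnb1, and through alpha-catenin the actin cytoskeleton, while nectins are tied to actin by afadin. Newborn neurons leave the belt as they migrate away, and many scaffolds of these junctions are also used at synapses and in axons.

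The libraries held 5120585 to 5569444 counted reads each. Values are normalized counts, each a count of reads scaled by the size factor of its library. Ctnnb1 (chr9:120929216-120960507, forward strand, mm10) had 7103, 7661, 7133, 6572 and 5477 normalized counts in the 5 knockout libraries, against 9841, 9960.1, 9967 and 9545 in the 4 control libraries. Every knockout library was below every control library, and the heterozygous control lay beside the other controls. The means were 6789 ± 828 in knockout and 9828 ± 197 in control (SD, n = 5 and 4), a log2 change of -0.54 (SE 0.0960, adjusted p = 0.000811) by limma, with p = 0.00794 in a two-sided exact permutation test, the smallest p the design allows. Gene-level counts include exons outside the floxed part and cells without Cre, so the knockout level of 69.1% of control does not measure how many alleles were deleted. The antisense gene Ulk4 overlaps 14.6% of the Ctnnb1 exon length and averaged 32.0 in knockout and 39.6 in control. Log2 changes and log2 fold changes here are knockout minus control on log2(normalized count + 1), and adjusted p is limma's, corrected over the 13780 genes whose mean reached 10.

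Marker RNA of several cell types differed between the groups. Of all genes tested, 17.2% were higher in knockout and 17.3% lower. Of 14 tested radial glia markers, 8 were lower in knockout and 0 higher; their summed level, over 15 markers, was 15011 to 20260 in knockout and 26140 to 31442 in control. All 10 cycling cell markers were lower, with sums of 9502 to 19165 in knockout and 25207 to 27624 in control. Of 12 neuron markers, 8 were higher and 0 lower, with sums of 31946 to 40470 in knockout and 17906 to 23022 in control. Markers of the MGE itself were abundant in every library, with sums of 32341 to 40608 in knockout and 20798 to 35812 in control; 6 of 10 were higher and 0 lower, so the labelled tissue matched its markers. In bulk RNA, fewer cells of a type and less RNA per cell cannot be told apart, and the part of these shifts in the results below was not tested.

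3 libraries stood apart in markers of neighbouring tissue. Control replicate 1 had dorsal telencephalon and choroid plexus sums of 4952 and 3280, against 957 to 1269 and 294 to 487 in the other controls. Knockout replicate 4 had the highest Pax6 (493) and Otx2 (410), against 22.8 to 102 and 83.1 to 106 in the other knockouts. Knockout replicate 5 had the highest sums of pericyte and meninges markers (4253, against 1426 to 2094 in the other knockouts) and of surface epithelium markers (586, against 145 to 254). Counts of called genes over the members, the other pathway genes and all genes are given with and without these 3 libraries, a choice made after seeing the data. Calls among the members and the other pathway genes that are lost or gained without them are given too. Counts by marker list or by complex were not repeated without them, and neither were the paralogue ratios. The libraries that were kept also varied in such markers. Control replicate 4 had Otx2 at 285, against 143 to 151 in the other controls. Knockout replicate 2 had the highest Ttr of its group (384, against 63.3 to 334 in the other knockouts).

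Polarity and junction scaffold genes moved in both directions. Of the 35 genes, 33 passed the filter on low values, of which 6 were higher in knockout, 10 were lower and 17 were not past the threshold of an adjusted p under 0.05. The 16 called genes are 48.5% of those tested, against 34.5% of all genes tested (17.2% higher and 17.3% lower). The median log2 fold change was -0.09 over the members and -0.01 over all genes. With a minimum mean of 50 in place of 10, 29 members were tested, 5 higher and 10 lower, against 41% of all genes called. For 13 of the 33 the knockout and control libraries did not overlap, against 29.1% of all genes tested. The higher genes were Prkcz, Shroom2, Lin7a, Magi2, Nectin1 and Afdn, and the lower genes Shroom3, Crb2, Pard3b, Mpp5, Tjp1, Pard6b, Prkci, Rock1, Pard6g and Llgl1. A change of at least 1 on the log2 scale was reached by Prkcz among the higher genes and by Shroom3 among the lower, against 4.23% and 1.86% of all genes tested. Without the 3 libraries that stood apart, 5 members were higher and 10 lower, against 22.6% of all genes called in that smaller set (11.3% in each direction): Afdn and Llgl1 were no longer past the threshold and Nectin3 was.

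**Figure D1:**
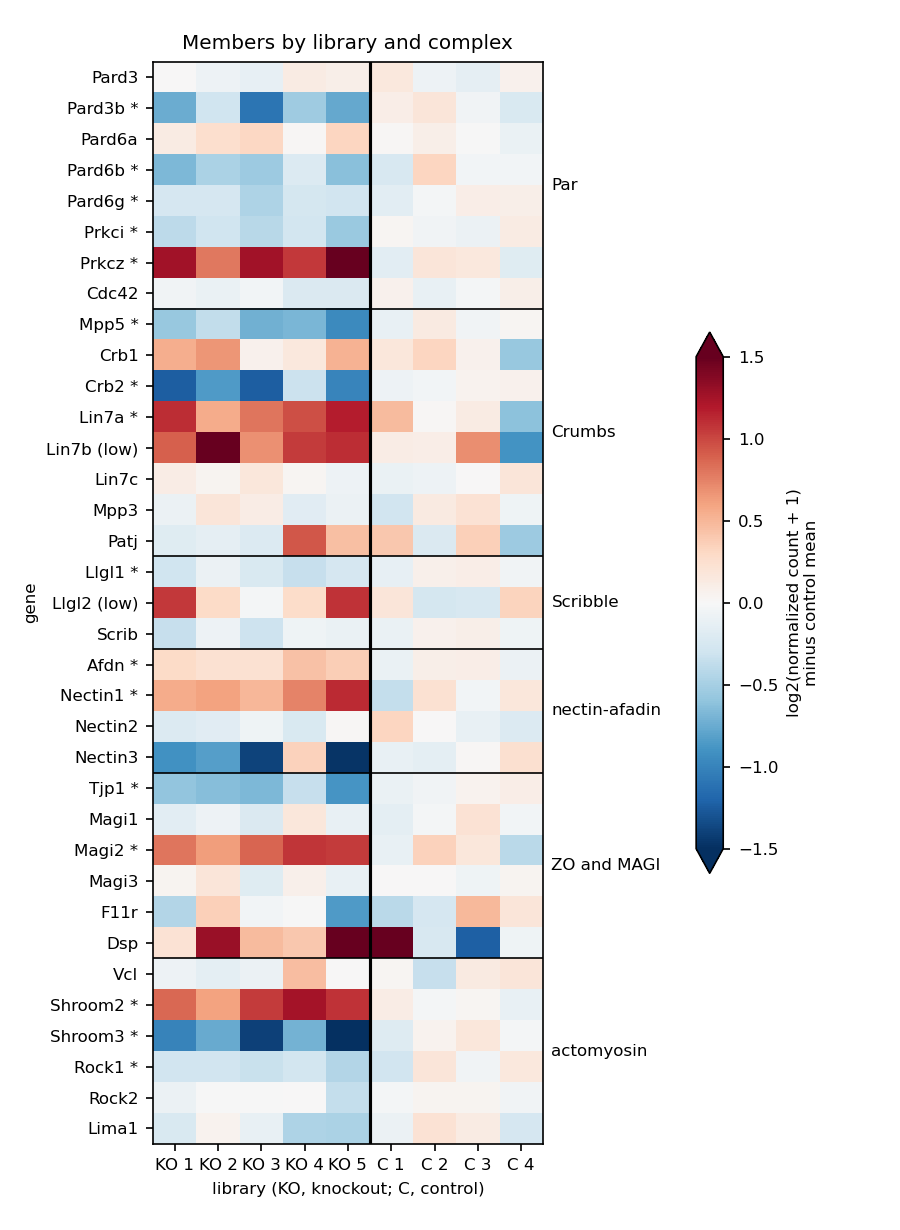
Log2 level of each member in each library relative to the control mean, on a colour scale that stops at 1.5 either way; knockout libraries are on the left and control libraries on the right, rows are grouped by complex, and asterisks mark the 16 genes past the threshold. The marked rows of Prkcz and Prkci and of Shroom2 and Shroom3 change colour between the left and the right block, in opposite directions within each pair. In the marked rows of Pard6b, Llgl1 and Rock1 the knockout and control libraries overlap.

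The Par complex sets the apical domain: Pard3 is its scaffold, the Pard6 proteins are adaptors that bind active Cdc42, and Prkci and Prkcz are the atypical protein kinases C that they deliver. Of its 8 genes, 1 was higher and 4 were lower, or 62.5% called against 34.5% of all genes tested. Prkcz (chr4:155260129-155361361, reverse strand) had 150.3, 109, 150.5, 131 and 189 normalized counts in knockout, against 55.6, 70.5, 69.3 and 54.8 in control. Its paralogue Prkci (chr3:30995747-31052959, forward strand) had 288, 307, 283, 314 and 258 in knockout, against 385, 365, 356 and 413 in control. Neither gene's groups overlapped, and the changes had opposite signs. Prkcz averaged 146 ± 29.8 in knockout and 62.6 ± 8.52 in control (SD), a log2 change of 1.20 (SE 0.162, adjusted p = 0.000169). Prkci averaged 289.8 ± 22.0 in knockout and 379 ± 25.3 in control (SD), a log2 change of -0.39 (SE 0.0934, adjusted p = 0.00551). Per kilobase of exon, Prkci was the more abundant of the pair in both groups, with 52.2 and 68.4 normalized counts in knockout and control, beside 23.1 and 9.90 for Prkcz.

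The promoters of this pair are shown because the genes moved in opposite directions and because Prkcz has more than 1 start. Prkcz is known in brain for an internal promoter from which a short, constitutively active kinase without the Pard6-binding part is made. RefSeq (GRCm38.p6) lists 3 Prkcz starts, the second 15639 bases downstream of the first; the gene-level counts do not tell their transcripts apart. Each sequence gives the 250 bases before a start, 5′ to 3′ on the gene's strand, and capitals mark GGGCGG or its complement CCGCCC, the GC box word of SP and KLF factors.
Prkcz outer start, chr4:155361429-155361678, reverse strand: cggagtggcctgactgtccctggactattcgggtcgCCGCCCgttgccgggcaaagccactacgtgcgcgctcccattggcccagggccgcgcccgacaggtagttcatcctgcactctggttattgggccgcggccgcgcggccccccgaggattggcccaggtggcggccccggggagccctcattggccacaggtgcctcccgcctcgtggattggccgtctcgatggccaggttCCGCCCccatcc
Prkcz second start, chr4:155345790-155346039, reverse strand: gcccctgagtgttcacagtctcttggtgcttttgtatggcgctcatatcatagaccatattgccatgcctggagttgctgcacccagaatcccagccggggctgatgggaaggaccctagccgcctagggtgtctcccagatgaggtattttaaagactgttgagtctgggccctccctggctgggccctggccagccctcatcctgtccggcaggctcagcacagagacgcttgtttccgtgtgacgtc
Prkci, chr3:30995521-30995770, forward strand: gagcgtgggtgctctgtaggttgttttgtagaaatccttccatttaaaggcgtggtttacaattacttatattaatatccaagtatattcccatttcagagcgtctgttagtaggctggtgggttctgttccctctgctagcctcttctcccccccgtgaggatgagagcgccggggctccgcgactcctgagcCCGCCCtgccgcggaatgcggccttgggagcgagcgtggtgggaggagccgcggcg
The outer Prkcz window held the word at 2 places, the Prkci window at 1 and the second Prkcz window at 0; the window of the third Prkcz start, which is not printed, held it at 2 places. GC content was 70.8% in the outer Prkcz window, 58.0% in the second, 56.8% in the third and 56.4% in the Prkci window.

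Among the Pard6 adaptors, Pard6b and Pard6g were lower and Pard6a was not past the threshold. Pard6b had 78.1, 89.4, 85.3, 108 and 80.6 normalized counts in knockout, against 105, 156, 122 and 122 in control. Pard6g had 396, 395, 342, 393 and 385 in knockout, against 423, 462, 505 and 500.2 in control. The Pard6g groups did not overlap, while knockout replicate 4 of Pard6b lay above control replicate 1. The log2 fold changes were -0.50 (SE 0.145, adjusted p = 0.0153) for Pard6b and -0.30 (SE 0.0902, adjusted p = 0.0173) for Pard6g. Without control replicate 2 the adjusted p of Pard6b was above 0.05, and so was that of Pard6g without control replicate 3 or 4. Pard6a had 128, 139, 145, 119 and 146 in knockout and 118, 124, 117 and 109 in control, a log2 change of 0.21 (SE 0.115, adjusted p = 0.174).

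Pard3b, a Pard3 relative that does not bind atypical protein kinase C, had 55.4, 76.0, 43.1, 64.1 and 54.4 normalized counts in knockout, against 100.1, 106, 90.4 and 79.7 in control. Every knockout library was below every control library, and the log2 change was -0.69 (SE 0.171, adjusted p = 0.00666). Pard3 itself had 399.6, 379, 366, 434 and 423 in knockout and 444, 379, 362 and 416 in control, and the ranges lay over each other. Its log2 change was 0.00 (SE 0.0941, adjusted p = 0.985), with a 95% interval of -0.20 to 0.20. Cdc42, the small GTPase that activates the complex, was the most abundant member per kilobase, with 599 normalized counts per kilobase in knockout and 654 in control. Its log2 change was -0.13 (SE 0.0823, adjusted p = 0.251).

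**Figure D2:**
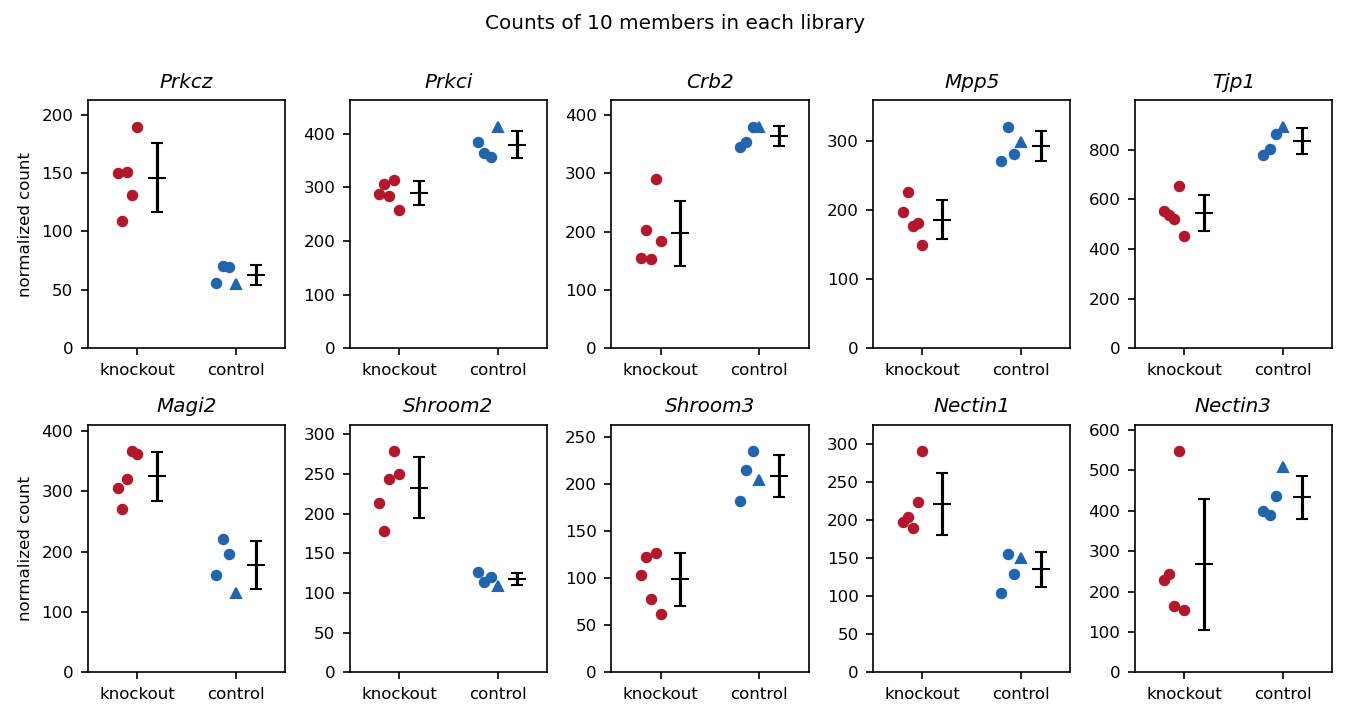
Normalized counts of selected members in each library, knockout on the left and control on the right of each panel, with the mean and SD as bars and the heterozygous control as a triangle; each panel has its own axis. Prkcz and Shroom2 lie higher in all 5 knockout libraries than in all 4 controls, Prkci and Shroom3 lower, and knockout replicate 4 is the high point of Nectin3.

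The Crumbs complex consists of the transmembrane Crumbs proteins and the scaffolds that bind their tails, with Mpp5 (Pals1) linking Crumbs to Patj and to Lin7. Of its 7 tested genes, 1 was higher and 2 were lower, or 42.9% called against 34.5% of all genes tested. Crb2 (chr2:37776249-37799103, forward strand), the more abundant of the tested Crumbs genes per kilobase, had 154, 202, 153, 291 and 183 normalized counts in knockout, against 346, 355, 379 and 379.7 in control. Mpp5 (chr12:78748907-78840714, forward strand) had 197, 227, 177, 181 and 150.1 in knockout, against 271, 321, 281 and 299 in control. In both genes all knockout libraries were below all controls. Knockout replicate 4 was nearest the controls for Crb2. Crb2 averaged 197 ± 56.4 in knockout and 365 ± 17.2 in control (SD), a log2 change of -0.93 (SE 0.159, adjusted p = 0.000759). Mpp5 averaged 186 ± 28.3 in knockout and 293 ± 21.9 in control (SD), a log2 change of -0.66 (SE 0.119, adjusted p = 0.000939).

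Lin7a, a small adaptor of the complex that also works at synapses, was a low gene that was higher in knockout. It had 28.7, 19.2, 23.1, 25.8 and 30.2 normalized counts in knockout, against 18.2, 12.9, 14.1 and 7.97 in control, with no overlap. The log2 change was 0.92 (SE 0.266, adjusted p = 0.0153), and without the heterozygous control replicate 4 the adjusted p was above 0.05. Its paralogue Lin7c was far more abundant, at 261 normalized counts per kilobase in knockout and 252 in control, beside 7.67 and 4.01 for Lin7a. Lin7c had 1222, 1167, 1274, 1155 and 1076 in knockout and 1061, 1072, 1135 and 1282 in control, a log2 change of 0.05 (SE 0.0872, adjusted p = 0.668). Crb1 had 59.3, 64.4, 42.1, 45.0 and 58.4 in knockout and 45.5, 50.7, 42.2 and 26.9 in control, a log2 change of 0.39 (SE 0.209, adjusted p = 0.159). In both of these genes the groups overlapped. Mpp3, a Pals1-related scaffold, had 528, 639, 611, 501 and 528 in knockout and 463, 619, 654 and 537 in control, and Patj ranged from 42.1 to 93.8 in knockout and from 32.9 to 64.7 in control; neither passed the threshold. Lin7b, at 5.02 to 12.5 in knockout and 0.996 to 5.02 in control, was below the filter and was not tested.

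The Scribble group opposes the apical complexes at the basolateral side, and of its 2 tested genes 1 was lower and 0 were higher. Over all genes tested 34.5% were called. Llgl1, a substrate of atypical protein kinase C, was among the most abundant members per kilobase. It had 1613, 1861, 1697, 1558 and 1669 normalized counts in knockout and 1818, 2092, 2129 and 1917 in control. Knockout replicate 2 lay above control replicate 1, and the log2 change was -0.24 (SE 0.0854, adjusted p = 0.0385). That call was lost in 12 of 20 alternatives. Scrib, the scaffold of the group, ranged from 949 to 1158 in knockout and from 1131 to 1287 in control, a log2 change of -0.18 (SE 0.0911, adjusted p = 0.142). Llgl2 was below the filter, at 6.02 to 14.1 in knockout and 4.97 to 7.97 in control.

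Nectins are immunoglobulin-like adhesion molecules, and afadin (Afdn) ties their tails to actin. Of the 4 genes, 2 were higher and 0 lower, against 17.2% higher and 17.3% lower of all genes tested. Nectin1 (chr9:43743984-43807461, forward strand) had 197, 204, 189.6, 224 and 290.2 normalized counts in knockout, against 104, 156, 129.6 and 150.5 in control. Afdn (chr17:13760539-13906150, forward strand) had 1453, 1394, 1395, 1612 and 1535 in knockout, against 1112, 1269, 1279 and 1123 in control. Neither gene's groups overlapped. The log2 fold changes were 0.71 (SE 0.149, adjusted p = 0.00252) for Nectin1 and 0.31 (SE 0.0850, adjusted p = 0.0124) for Afdn, and without the 3 libraries that stood apart Afdn was no longer past the threshold.

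Nectin3 turned on a single library. It had 228, 242, 164, 547 and 154 normalized counts in knockout, against 398, 390.3, 436 and 507 in control. Knockout replicate 4 was above every control, while the other 4 knockouts were below every control. Over all libraries the log2 change was -0.85 (SE 0.347, adjusted p = 0.0912); without knockout replicate 4 it was -1.15 (SE 0.153, adjusted p = 0.000362). Without the 3 libraries that stood apart it was -1.08 (SE 0.150, adjusted p = 0.000333). Knockout replicate 4 is also the library with high Pax6 and Otx2, and their part in its Nectin3 level was not tested. Nectin2 had 165, 169, 183, 163 and 192 in knockout and 238, 191, 176 and 165 in control, a log2 change of -0.13 (SE 0.120, adjusted p = 0.427).

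Of the 6 zonula occludens, MAGI and related junction genes, 1 was higher and 1 was lower. These are 33.3% called, near the 34.5% of all genes tested. Tjp1 (chr7:65296165-65527781, reverse strand) encodes ZO-1, which binds tight and adherens junction proteins to actin. It had 554, 536, 521, 653 and 452 normalized counts in knockout, against 779, 804, 862 and 892 in control. Magi2 (chr5:19227036-20704792, forward strand), a membrane-associated scaffold with a large synaptic role, had 306, 270.2, 320.0, 366 and 362 in knockout, against 162, 221, 196 and 132 in control. The groups of both genes were apart, Tjp1 lower and Magi2 higher in knockout. Tjp1 averaged 543 ± 72.6 in knockout and 834 ± 51.8 in control (SD), a log2 change of -0.63 (SE 0.102, adjusted p = 0.000503). Magi2 averaged 325 ± 40.2 in knockout and 178 ± 39.3 in control (SD), a log2 change of 0.88 (SE 0.145, adjusted p = 0.000503). The other MAGI scaffolds were not past the threshold. Magi1 had 666, 703, 636, 831 and 685 in knockout and 667, 727, 860.1 and 719 in control, a log2 change of -0.08 (SE 0.101, adjusted p = 0.579). Magi3 had 143, 158, 122, 147 and 129 in knockout and 140.5, 140.0, 134 and 143 in control, with a 95% interval of the log2 fold change from -0.24 to 0.24.

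The epithelial members of this group were near the floor. F11r, which encodes the junctional adhesion molecule JAM-A, ranged from 16.1 to 38.5 normalized counts in knockout and from 22.2 to 42.2 in control. Dsp, the desmosomal plaque protein desmoplakin, was the lowest tested member per kilobase, with 9.89, 22.1, 12.04, 11.5 and 55.4 in knockout and 26.3, 6.95, 3.01 and 7.97 in control. Its highest values stood in knockout replicate 5 and control replicate 1, the libraries with the highest surface epithelium sums in their groups (586 in knockout replicate 5 and 499 in control replicate 1). Its log2 change was 0.995 (SE 0.582, adjusted p = 0.207); it was 1.51 (SE 0.518, adjusted p = 0.0436) without control replicate 1, with no filter on low values the adjusted p was 0.0283, and the part of those markers in it was not tested. Of the 10 surface epithelium markers 5 were tested and Krt19 alone was past the threshold, higher in knockout; 3 of the 10 were at 0 in at least 1 library.

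Contraction at the junctional belt is driven by myosin under the kinases Rock1 and Rock2, which Shroom proteins bring to apical actin. Of the 6 actomyosin members, 1 was higher and 2 were lower, or 50% called against 34.5% of all genes tested. Shroom2 (chrX:152609509-152769465, reverse strand) had 213, 178, 244, 278 and 249.9 normalized counts in knockout, against 126.3, 114, 119.6 and 109 in control. Shroom3 (chr5:92683435-92965318, forward strand), the member known for apical constriction in neural tube closure, had 104, 123, 78.2, 127 and 62.5 in knockout, against 182, 216, 235 and 204 in control. The groups were apart for both genes and in opposite directions. Shroom2 averaged 233 ± 38.5 in knockout and 117 ± 7.57 in control (SD), a log2 change of 0.97 (SE 0.130, adjusted p = 0.000159). Shroom3 averaged 99.0 ± 28.1 in knockout and 209 ± 22.2 in control (SD), a log2 change of -1.12 (SE 0.190, adjusted p = 0.00073). Per kilobase of exon the order of the pair's means differed between the groups: Shroom2 stood at 27.8 and Shroom3 at 7.47 in knockout, while in control Shroom2 stood at 13.99 and Shroom3 at 15.8. Control replicate 1, with 15.1 for Shroom2 and 13.7 for Shroom3, had the order of the knockouts. The lengths used join all annotated exons, 8.375 kb for Shroom2 and 13.247 kb for Shroom3. The order in control, where the levels were close, is therefore uncertain. An antisense gene overlaps 24.9% of the Shroom3 exon length but was at 0 in every library.

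RefSeq lists 4 Shroom2 and 2 Shroom3 windows, and the outermost of each is shown for the same reason, in the same form. The Shroom3 one belongs to a RefSeq start inside the GENCODE span of the gene.
Shroom2 outer start, chrX:152769487-152769736, reverse strand: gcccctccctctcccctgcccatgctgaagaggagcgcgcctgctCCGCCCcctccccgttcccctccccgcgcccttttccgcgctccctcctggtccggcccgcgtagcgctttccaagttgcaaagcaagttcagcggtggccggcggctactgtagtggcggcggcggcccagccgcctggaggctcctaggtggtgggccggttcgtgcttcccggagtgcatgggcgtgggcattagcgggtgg
Shroom3 outermost RefSeq start, chr5:92809132-92809381, forward strand: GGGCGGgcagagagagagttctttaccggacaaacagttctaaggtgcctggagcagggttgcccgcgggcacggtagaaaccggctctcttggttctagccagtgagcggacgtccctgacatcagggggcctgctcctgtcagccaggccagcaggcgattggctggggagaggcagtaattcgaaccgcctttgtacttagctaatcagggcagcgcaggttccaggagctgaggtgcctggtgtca
Each of these held the GC box word once, at a GC content of 71.2% in Shroom2 and 60.4% in Shroom3, and the other 3 Shroom2 windows and the other Shroom3 window held it 0 times. RefSeq windows were matched for 28 of the 35 members, 41 windows in all. GGGCGG on either strand was in 25 of these 41 windows, against 32.7% of all 32851 windows of the same length. The median GC content was 62.0% in member windows and 52.4% in all windows. The words CTTTGAA and CTTTGAT, on either strand, which fit the binding site of the TCF and LEF factors that work with beta-catenin, were in 0 of the 41 member windows and in 7.48% of all windows. These are letter matches in short windows and say nothing about binding.

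Rock1 had 305, 303, 295, 305 and 272 normalized counts in knockout, against 303, 420.1, 357 and 415 in control, with control replicate 1 inside the knockout range. Its log2 change was -0.32 (SE 0.107, adjusted p = 0.0289), and without any 1 of knockout replicates 3 and 5 and control replicates 2 and 4 the adjusted p was above 0.05. Rock2 had 436, 463, 460.4, 467 and 363 in knockout and 456, 476, 475 and 448 in control, a log2 change of -0.09 (SE 0.0937, adjusted p = 0.492). Vcl, the actin-binding protein vinculin recruited to junctions under tension, ranged from 75.0 to 115 in knockout and from 65.6 to 94.7 in control. The antisense gene Ap3m1, at 191 to 273 in knockout and 282 to 307 in control, overlaps 25.5% of the Vcl exon length, so Vcl counts are uncertain. Lima1, an actin-bundling protein that binds alpha-catenin, ranged from 1146 to 1664 in knockout and from 1337 to 1859 in control. Neither Vcl nor Lima1 passed the threshold.

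Of the 17 members that were tested but not past the threshold, 11 had a 95% interval of the log2 fold change within 0.5 on both sides of 0. The intervals of Crb1, Patj, Nectin3, F11r, Dsp and Lima1 reached further, at most to -1.65 for Nectin3 and 2.26 for Dsp.

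A gene called beside a paralogue that is not called does not show that the 2 differ, so the log2 ratio of 16 pairs of paralogues was compared between the groups. A two-sided exact permutation test over all assignments of the libraries was used, adjusted over the 16 pairs. The difference in ratio was past 0.05 for 12 pairs, and in 9 pairs the groups did not overlap. Of all genes tested singly, 34.5% were called and 29.1% had no overlap. Pairs of other genes were not tested, so these counts are not shown to be particular to paralogues. Genes of the Pard6, nectin and MAGI families enter several pairs, so the pairs are not independent. The widest was Shroom2 over Shroom3, whose mean log2 ratio was 1.26 ± 0.563 in knockout and -0.83 ± 0.205 in control (SD, n = 5 and 4), a difference of 2.08 (SE 0.272, exact permutation adjusted p = 0.0254). The Prkcz over Prkci ratio was -1.01 ± 0.396 in knockout and -2.59 ± 0.282 in control, a difference of 1.58 (SE 0.226, exact permutation adjusted p = 0.0254). In these pairs both partners were called, in opposite directions.

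In the other 10 of these 12 pairs 1 partner moved and the other did not pass the threshold. The difference was 1.56 (SE 0.380) for Nectin1 over Nectin3, 0.84 (SE 0.250) for Nectin1 over Nectin2, -1.32 (SE 0.313) for Crb2 over Crb1 and 0.65 (SE 0.128) for Mpp3 over Mpp5. It was -0.96 (SE 0.170) for Magi1 over Magi2 and 0.88 (SE 0.218) for Magi2 over Magi3, so that Magi2 differed in response from both of its relatives. The adjusted p was 0.0254 for each of these pairs and for Lin7a over Lin7c (0.87, SE 0.316) and Pard6a over Pard6g (0.51, SE 0.122), all by the exact permutation test. It was 0.0318 for Pard6a over Pard6b (0.71, SE 0.163) and for Pard3b over Pard3 (-0.69, SE 0.173).

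The remaining 4 pairs did not differ past the threshold. The difference was 0.72 (SE 0.408) for Nectin2 over Nectin3, 0.24 (SE 0.117) for Rock2 over Rock1, -0.20 (SE 0.144) for Pard6b over Pard6g and -0.08 (SE 0.115) for Magi1 over Magi3, with exact permutation adjusted p of 0.163, 0.0781, 0.220 and 0.532. The count of pairs past 0.05 depended on which library was left out. It was 0 without knockout replicate 1, 3 or 5, where the smallest adjusted p was 0.0508, and 11 without knockout replicate 2 or 4. With 1 knockout left out there are 70 assignments and the smallest p is 0.0286. A count of 0 there does not show that the ratios stopped differing. Without knockout replicate 1, 3 or 5 the groups still did not overlap in 9 pairs. The count was 7 without control replicate 3 or 4, 8 without control replicate 2 and 12 without control replicate 1. The direction was as in all 9 libraries for at least 15 of the 16 pairs whichever library was left out.

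**Figure D3:**
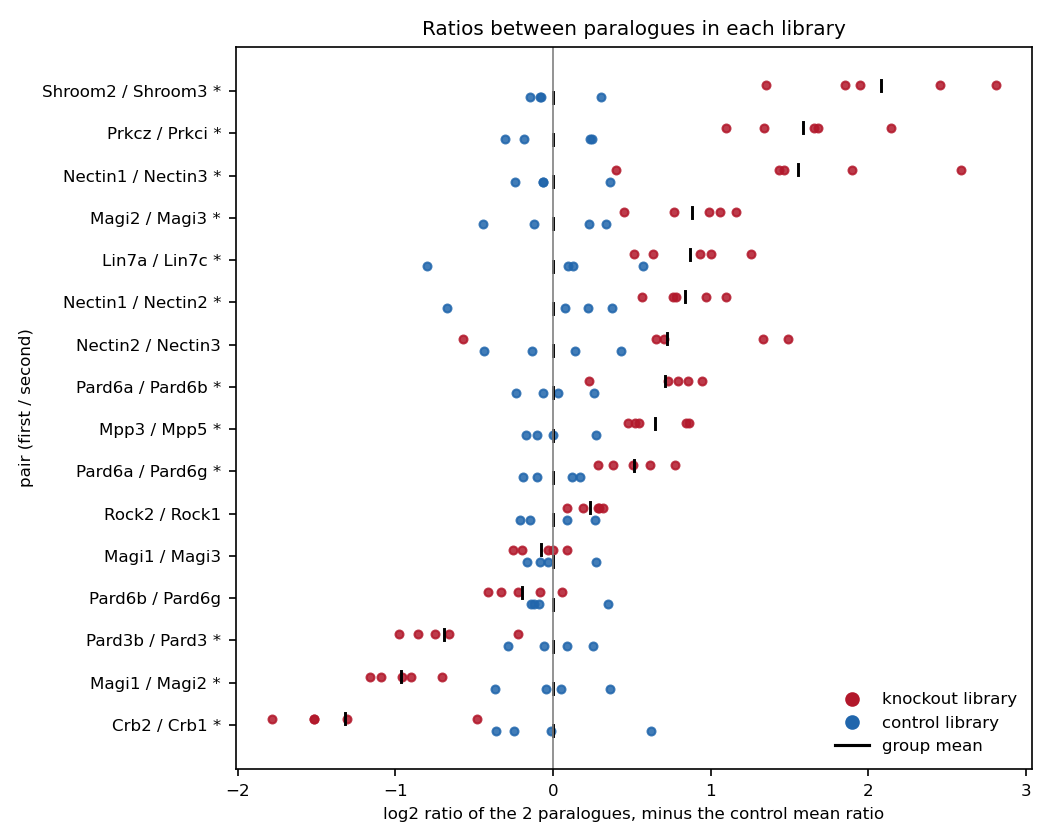
Log2 ratio of 2 paralogues in each library minus the control mean ratio of that pair, knockout beside control for each pair, with the group mean as a bar. In Shroom2 over Shroom3 every knockout library lies to the right of every control library. Before the control mean was subtracted, that ratio was between 0.53 and 1.98 in knockout and between -0.97 and -0.52 in control.

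The order of the libraries among the called members was uneven. Knockout replicate 2 was the knockout nearest the control mean for 8 of the 16 called members and replicate 4 for 6. Knockout replicate 5 was never the nearest. Knockout replicate 2 also had the highest cycling sum of its group (19165) and the lowest neuron sum (31946), and knockout replicate 5 the lowest cycling sum (9502) and the highest neuron sum (40470). Among the controls, replicate 1 was nearest the knockout mean for 10 of the 16 members, and the heterozygous replicate 4 for 1. The part of the cycling and neuron sums in the members' levels was not tested.

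A further 74 genes of polarity, junctions and junctional actomyosin, listed without regard to how they moved, were read from the same fit. Of the 64 tested, 8 were higher and 17 lower, or 39.1% called against 34.5% of all genes tested, with a median log2 fold change of -0.04. With a minimum mean of 50, 56 were tested, 7 higher and 17 lower, against 41% of all genes called. At the usual minimum of 10, without the 3 libraries that stood apart, 6 were higher and 15 lower, against 22.6% of all genes. Pkp4, Ppl, Rhoa and Myl12a were then no longer among the called genes. Among 21 other polarity genes 3 were higher and 5 lower, or 38.1% called against the 34.5% of all genes tested. The lower genes included Wwc1 (-0.96, SE 0.132, adjusted p = 0.000189), whose product binds atypical protein kinase C, its relative Wwc2 (-0.82, SE 0.138, adjusted p = 0.000604), Ect2 (-0.88, SE 0.146, adjusted p = 0.000682), an exchange factor that acts in cytokinesis, and Mpdz (-0.69, SE 0.134, adjusted p = 0.00162), a Patj paralogue. The higher genes were Tiam1 (0.66, SE 0.141, adjusted p = 0.00288), a Rac activator that binds Pard3, the polarity kinase gene Mark4 (0.56, SE 0.127, adjusted p = 0.00403) and the synaptic scaffold gene Dlg3 (0.43, SE 0.100, adjusted p = 0.00451). With control replicates 2 and 3 only, Mark4 was not past the threshold (adjusted p = 0.0729).

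Among 21 tested cell junction genes outside the member list 4 were higher and 7 lower, or 52.4% called against 34.5% of all genes. The alpha-catenins that join beta-catenin to actin moved in opposite directions. Ctnna1, the epithelial form, averaged 1219 ± 141 normalized counts in knockout and 1904 ± 51.4 in control (SD, n = 5 and 4), a log2 change of -0.65 (SE 0.0931, adjusted p = 0.000229). Ctnna2, the neural form, averaged 1487 ± 97.7 in knockout and 1026 ± 101 in control, a log2 change of 0.54 (SE 0.0894, adjusted p = 0.000553). Plekha7 (-1.23, SE 0.152, adjusted p = 8.81e-05), which binds p120-catenin at the belt, and the junctional adhesion molecule gene Jam3 (-0.71, SE 0.120, adjusted p = 0.000602) were lower. Jup (0.63, SE 0.169, adjusted p = 0.011), the gene of plakoglobin, the closest relative of beta-catenin, was higher, with 162, 164, 249, 177 and 298 in knockout, against 140.5, 123, 129 and 135 in control. With control replicates 2 and 3 only, Jup was not past the threshold (adjusted p = 0.0606). Pkp4 (0.32, SE 0.114, adjusted p = 0.0393), an armadillo protein gene, and Ppl (1.87, SE 0.531, adjusted p = 0.0146), a periplakin gene with 8.61 to 41.3 normalized counts in knockout and 0.993 to 9.10 in control, were higher with overlapping groups. Pkp4 was not past the threshold in 10 of 20 alternatives, among them leaving out knockout replicate 3, 4 or 5 or control replicate 1 or 4, and it was 0.18 (SE 0.119, adjusted p = 0.304) without the 3 libraries that stood apart. Ppl was highest in knockout replicate 5, the library with the highest surface epithelium sum, whose part in it was not tested. Without that library, and without the 3 that stood apart, Ppl fell under the filter on low values and was not tested.

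Among 22 other actomyosin genes 1 was higher and 5 were lower, or 27.3% called against 34.5% of all genes tested. Camsap3 (0.96, SE 0.136, adjusted p = 0.00022), which anchors the minus ends of microtubules, was higher. Actn1 (-0.91, SE 0.103, adjusted p = 5.85e-05), an actin crosslinker, Msn (-0.92, SE 0.162, adjusted p = 0.00118), which joins actin to the membrane, the small GTPase gene Rhoa (-0.27, SE 0.0815, adjusted p = 0.0201) and the myosin light chain gene Myl12a (-0.47, SE 0.142, adjusted p = 0.0206) were lower. Without the 3 libraries that stood apart Rhoa was -0.23 (SE 0.0979, adjusted p = 0.11) and Myl12a -0.25 (SE 0.138, adjusted p = 0.212). Rhoa was also not past the threshold without control replicate 4, nor Myl12a without control replicate 1 or 4. As with the members, these lists held calls in both directions.

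**Figure D4:**
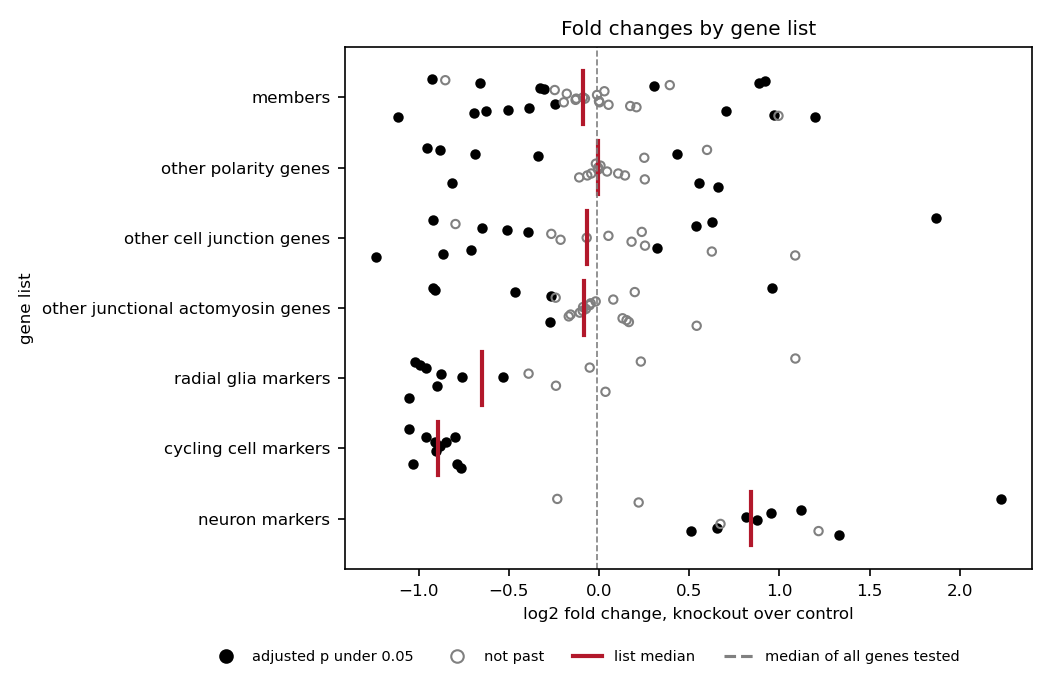
Log2 fold change of each tested gene, knockout over control, by gene list; filled points are past an adjusted p of 0.05, open points are not, red bars are list medians and the dashed line is the median of all genes tested. The members and the 3 pathway lists spread to both sides of 0, the members with a median of -0.09, while the cycling markers lie entirely below 0 and the called neuron markers entirely above it.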

How the data were processed

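The deposited values are normalized counts, a signal per gene that the authors made by dividing read counts by 1 size factor per library, as whole multiples of 1 step in each library show (tolerance 0.01). Per the submitters' processing notes, the tools were DESeq2, R 3.4.0, HTSeq 0.9.1 and TopHat2 2.1.1 and the genome build was mm10. The role of each, the annotation and any strand setting are not given in the sources used. Libraries were made from 500 ng of RNA with a NEBNext Ultra kit, per the labels. Without a strand setting, a gene and an overlapping antisense gene cannot be told apart. Depth was 5120585 to 5569444 reads and size factors 0.989 to 1.05, so counting error was similar across libraries and largest for genes with few reads.

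Gene positions and exon lengths are from GENCODE M21 and promoter windows from RefSeq GRCm38.p6. An exon length joins all annotated exons of a gene, so a comparison of genes per kilobase is approximate. Two-sided limma 3.58.1 was run in R 4.3.3 with its trend and robust options (statmod 1.5.0). Its input was log2(normalized count + 1) of the 13780 genes whose mean reached 10, and adjusted p (Benjamini-Hochberg) had to be under 0.05. No count model was fitted: the deposited values are not raw counts, and read counts recovered from them were not used in a fit. This scale understates changes of low genes. Paralogue ratios were compared by exact permutation over libraries. The limma fit was tested on simulated data.

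All members are named, with values in every library for those past the threshold or in a paralogue pair past it. Of each pathway list, up to 4 genes past the threshold with the smallest p in each direction are named, and marker genes where they stand apart. A gene that this rule took is not reported here by name. Rock2, Dsp, Ctnna1, Ctnna2 and Jup are given in more detail, a choice made after their values were seen. Members, lists and tests were chosen with earlier results of these data known. The labels do not say whether libraries are separate embryos, so p-values reflect only how these libraries vary, and that spread may be technical. The alternatives tried were a pseudocount of 0.5 or 8, a minimum mean of 50 or none, upper-quartile and TMM scaling, limma with neither option, quality weights per library, a replicate block, leaving out each library, control replicates 2 and 3 only, a log2 fold change of at least 1 and, chosen after seeing the data, control replicates 2 to 4 with knockout replicates 1 to 3.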

Additional observations from a re-analysis of the deposited data

Results flagged for a closer look

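In 5 of 72 groups of libraries, over the 35 members and Ctnnb1, 1 library lay far from the others by Dixon's ratio of its gap to the group's range; chance flags about 1 group in 20. Pard6g had 342 normalized counts in knockout replicate 3, against 385 to 396 in the other knockouts. Lin7b, a gene below the filter, had 12.5 in knockout replicate 2, against 5.02 to 7.05. Nectin3 had 547 in knockout replicate 4, against 154 to 242. Vcl had 115 in the same library, against 75.0 to 83.6. Dsp had 55.4 in knockout replicate 5, against 9.89 to 22.1.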

How the results depend on the processing

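Of the 16 called members, 9 stayed past the threshold in the same direction under all 20 alternatives that refit the test: Pard3b, Prkcz, Mpp5, Crb2, Nectin1, Tjp1, Magi2, Shroom2 and Shroom3. Llgl1 was lost in 12 of them, Rock1 in 7, Pard6g in 4, Afdn in 3, Lin7a in 2, and Pard6b and Prkci in 1 each; Lin7a, Prkci and Afdn were among those lost with control replicates 2 and 3 only. Leaving out 1 library gave 5 to 7 members higher and 7 to 10 lower, 6 to 11 other pathway genes higher and 12 to 18 lower, 1857 to 2390 of all genes higher and 1686 to 2417 lower, a Ctnnb1 log2 fold change of -0.59 to -0.47, and 0 to 12 paralogue pairs. The smallest p that the pair test allows rises when a library is left out. Also requiring a log2 change of at least 1 left 1 member higher and 1 lower, 1 other pathway gene in each direction, 583 of all genes higher and 256 lower, and 4 pairs. With control replicates 2 and 3 only, all genes gave 1387 higher and 1112 lower, and with control replicates 2 to 4 and knockout replicates 1 to 3, chosen after seeing the data, 1548 higher and 1540 lower, with fewer libraries in each; the pairs were not run on these sets. Replicate numbers did not pair the libraries (correlations of deviations -0.117 to 0.137), and 1 of 4 numbers correlated best with itself; with the replicate block 5 members were higher and 7 lower, against 13.3% and 12.2% of all genes. 5 uncalled members near 0 changed sign. Pard3 was -0.00921 with TMM scaling, -0.0179 with the replicate block, -0.0137 on the added set of libraries and -0.0441 to 0.0538 with 1 library left out. Mpp3 was 0.00986 with the replicate block and -0.105 to 0.0611 with 1 library left out. Patj was -0.0365 on the added set and -0.0176 to 0.309 with 1 library left out. Magi3 was -0.0118 with TMM scaling and -0.0442 to 0.0466 with 1 library left out, and Vcl -0.0955 on the added set and -0.0839 to 0.0906. The cause was not tested. Depth limits the genes with few reads, such as Lin7b, Llgl2 and Dsp.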
